A study of Mus musculus with 16 samples.

Results

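The genes described here are Sp100, Neurl3, Lgals3bp, Fyb, Prex1, Pik3cd and Ecm1, 7 of the 15653 genes listed in at least 1 of the study's 3 expression tables. They were chosen from measured values: each was lower with a guide RNA against Nlrc5 in cultured TDMa melanoma cells and higher with that guide in tumours of the same cells. The choice stated no threshold. Differences between guides in TDMa culture and in tumours are therefore given below as a description of how the genes were picked, with no test. The guide difference in TDM culture was not part of the choice and was tested.

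RNA had been sequenced from B16F10, a mouse melanoma line, in 2 derived forms, B16F10-TDM and B16F10-TDMa. Neither name is spelled out in the labels, and the series title speaks of demethylation and activation of NLRC5. Every group had been transduced with a guide, either the control sgScramble or the Nlrc5-directed sgNlrc5, so no untransduced cells served as control. TDM cells in culture had 2 libraries per guide, TDMa cells in culture had 2 per guide, and tumours of TDMa cells, called VIVO in the titles, had 4 per guide. The host animals, their age, the site and the time of tumour growth, and whether a line is a clone, are not given in the sources used here. Nor do the labels say that replicates came from separate cultures or animals, so the p-value of a test measures the spread between these libraries, which may be technical.

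NLRC5 is an interferon-inducible transactivator of MHC class I genes. Interferons act through cell surface receptors to switch on antiviral genes, a programme that tumour cells and leukocytes share. Sp100 encodes a component of PML nuclear bodies, and Lgals3bp a secreted glycoprotein that binds galectin-3; both are known interferon-stimulated genes. Neurl3 encodes a RING-type ubiquitin ligase of the neuralized family that is induced by inflammatory signals. Fyb encodes ADAP, an adaptor that couples antigen receptor signalling to integrin activation in T cells and myeloid cells. Pik3cd encodes the delta catalytic subunit of class I PI3K, abundant in leukocytes, and Prex1 a Rac exchange factor that PI3K lipid products activate and that melanoblasts use to migrate. Ecm1 encodes a secreted matrix glycoprotein of skin and other tissues that binds perlecan and fibulin-1.

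Each library held between 12183889 and 16390886 reads over the listed genes. Nlrc5, the targeted gene, separated the guides in each table: it stood at 12.7 to 22.9 normalised counts with sgScramble and 57.4 to 78.6 with sgNlrc5 in TDM culture, at 242 to 254 and 3142 to 3146 in TDMa culture, and at 257 to 837 and 3434 to 4381 in tumours. Pigment cell genes were present in all 3 tables, with 9 of 11 melanocyte lineage markers listed in each culture table and 11 in the tumour table. Normalised counts were scaled separately in each table, so levels compare between tables only roughly. In tumour RNA, fewer cells of a type and less RNA per cell cannot be told apart.

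Sequence upstream of the start site is shown for the 3 genes of the set in which a search for letters of interferon, NF-kB and pigment cell elements placed a match within 250 bases, leaving aside Pik3cd, whose match lay before only 1 of its 3 start sites. RefSeq promoter entries of build GRCm38.p6 covered all 7 genes with 10 start sites, and 32851 start sites in all; the submitters' notes name the later build GRCm39, and no coordinate was carried between them. The capitals mark matches on either strand, and the sequence runs 5′ to 3′ on the gene's strand up to the base before the start site.
Sp100, chr1:85649738-85649987, plus strand: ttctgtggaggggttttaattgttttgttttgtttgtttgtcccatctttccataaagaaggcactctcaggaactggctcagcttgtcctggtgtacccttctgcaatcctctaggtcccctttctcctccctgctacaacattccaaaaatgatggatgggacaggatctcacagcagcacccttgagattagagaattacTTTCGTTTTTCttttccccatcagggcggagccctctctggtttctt
Lgals3bp, chr11:118401960-118402209, minus strand: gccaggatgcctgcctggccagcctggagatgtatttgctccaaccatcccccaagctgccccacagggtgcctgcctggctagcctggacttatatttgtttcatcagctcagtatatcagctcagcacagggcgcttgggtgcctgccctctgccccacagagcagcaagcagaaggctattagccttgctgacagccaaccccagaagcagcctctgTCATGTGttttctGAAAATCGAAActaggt
Neurl3, chr1:36273426-36273675, minus strand: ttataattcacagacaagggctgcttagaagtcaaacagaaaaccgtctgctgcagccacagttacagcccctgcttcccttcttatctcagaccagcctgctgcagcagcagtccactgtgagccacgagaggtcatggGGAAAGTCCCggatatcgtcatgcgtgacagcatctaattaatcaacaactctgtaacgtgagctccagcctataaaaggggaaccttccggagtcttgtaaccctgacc

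The Sp100 and Lgals3bp windows each hold a pair of GAAA boxes with 3 bases between them, 47 and 17 bases before the start. This motif was added to the search after the sequences had been read, and 2.38% of all promoters of that length hold it. The usual interferon-stimulated element, GAAA boxes with 2 bases between them, was found before none of the 7 genes, and before 2.98% of all start sites. Neurl3 holds the consensus kappa-B site of NF-kB on the opposite strand, 110 bases before the start, which 0.14% of promoters hold. Lgals3bp also holds TCATGTG, a motif bound by the pigment cell factor MITF, as do 3.25% of promoters. Also searched and found before none of the 7 were TTCNNNGAA, TGACGTCA, GAGGAAGT and TCACGTG. A match of letters is a description and shows neither binding nor use.

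**Figure D1:**
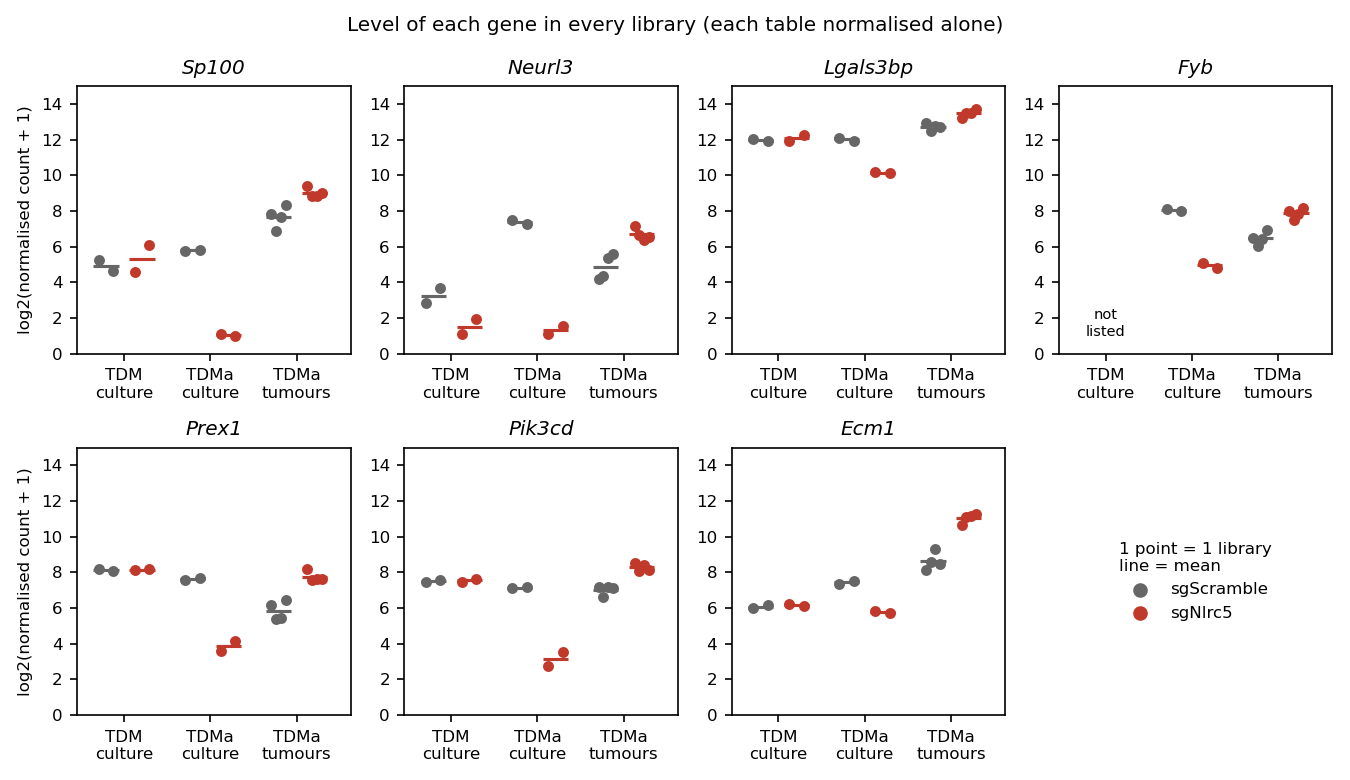
Level of each of the 7 genes in every library, as log2(normalised count + 1), for the 2 guides in TDM culture, TDMa culture and TDMa tumours; 1 point is 1 library and a line is the mean of a group. In TDMa culture both sgNlrc5 points lie below both sgScramble points for each gene, and in tumours the 4 sgNlrc5 points lie above the 4 sgScramble points.

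In TDMa culture the 7 genes were between log2 -1.64 and -6.06 lower with sgNlrc5, with a median of -3.73 against -0.00064 over all genes. In tumours the same genes were log2 0.75 to 2.43 higher, with a median of 1.41 against -0.010 over all genes. In every gene the groups did not overlap in either table. Among all genes, 33.0% had both sgNlrc5 libraries below both sgScramble libraries in TDMa culture, and 18.1% had all 4 sgNlrc5 tumours above all 4 sgScramble tumours; since the genes were picked for these differences, nothing is read from the counts. With limma at an adjusted p under 0.05, 34.2% of 12138 genes were called in TDMa culture (16.9% lower, 17.3% higher) and 39.4% of 13385 in tumours (19.7% higher). In TDMa culture 50.5% of calls were higher, and 38.8% were when the sums of normalised counts were made equal.

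Among the 3 genes tied to interferon or inflammation, the nuclear body gene Sp100 (ENSMUSG00000026222, chromosome 1) was left with 1 read in each sgNlrc5 library in TDMa culture. With sgScramble it was at 52.6 and 55.2 normalised counts, and at 1.12 and 0.969 with sgNlrc5, from 113 and 2 reads in all. The read ratio was 0.0193, with a 95% counting interval from 0.00231 to 0.0714. In tumours the sgScramble libraries held 228, 115, 199 and 317 normalised counts, and the sgNlrc5 libraries 669, 449, 458 and 505. The lowest sgNlrc5 tumour was thus above the highest sgScramble tumour, and the log2 difference was 1.35 ± 0.25 (standard error). The mouse genome holds repeated copies derived in part from Sp100, and how the counting treated shared reads is not given in the sources used here, so its level is uncertain; it also overlaps the opposite-strand gene Gm17017 in GENCODE M21 (GRCm38), and the strand setting of the counting is not given.

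Neurl3 (ENSMUSG00000047180, chromosome 1), the ubiquitin ligase gene, had the largest culture difference of the set. It was at 178 and 154 normalised counts with sgScramble in TDMa culture and at 1.12 and 1.94 with sgNlrc5, which are 348 and 3 reads. The read ratio was 0.00941, with a 95% counting interval from 0.00193 to 0.0277. The sgScramble tumours held 17.2, 19.1, 39.8 and 47.6 normalised counts and the sgNlrc5 tumours 143, 98.7, 81.4 and 93.4. All 4 sgNlrc5 tumours were above the sgScramble tumours, by log2 1.82 ± 0.33, yet they stayed under the sgScramble cells in culture. On a scale of reads per 1e6 reads of the 12284 genes that the 3 tables share (here RPM), Neurl3 averaged 12.6 in sgScramble TDMa culture, 2.16 in sgScramble tumours and 7.23 in sgNlrc5 tumours.

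Lgals3bp (ENSMUSG00000033880, chromosome 11), the galectin-3 binding protein gene, had the most reads of the set and the smallest tumour difference. In TDMa culture it stood at 4412 and 3927 normalised counts with sgScramble and at 1147 and 1111 with sgNlrc5, a log2 difference of -1.88 ± 0.051. The tumours held 7913, 5748, 6896 and 6761 with sgScramble and 9582, 11496, 11473 and 13565 with sgNlrc5, a log2 difference of 0.75 ± 0.13. Groups were separate in both tables, although the gap between the highest sgScramble and the lowest sgNlrc5 tumour was smaller than the range within either guide. It averaged 315 RPM in sgScramble TDMa culture, 477 in sgScramble tumours and 799.9 in sgNlrc5 tumours.

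The signalling genes formed a second group. The adaptor gene Fyb (ENSMUSG00000022148, chromosome 15) stood at 274 and 252 normalised counts with sgScramble in TDMa culture and at 32.6 and 27.1 with sgNlrc5, a log2 difference of -3.10 ± 0.19. Tumours held 87.3, 64.9, 84.5 and 119 with sgScramble and 255, 180, 228 and 281 with sgNlrc5, a log2 difference of 1.41 ± 0.20. Fyb overlaps the opposite-strand gene Gm2245 and the pseudogene Gm7666 in GENCODE M21, so its reads cannot be told apart from theirs with certainty. Cultured TDMa cells with sgScramble had the highest mean of this adaptor among the TDMa groups, at 19.9 RPM against 6.22 in sgScramble tumours and 16.4 in sgNlrc5 tumours.

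Prex1 (ENSMUSG00000039621, chromosome 2), the Rac exchange factor gene, followed a like course. It was at 186 and 202 normalised counts with sgScramble in TDMa culture and at 11.2 and 16.5 with sgNlrc5, a log2 difference of -3.73 ± 0.26. The sgScramble tumours held 71.2, 40.1, 41.8 and 85.6, and the sgNlrc5 tumours 286, 187, 199.8 and 199, a log2 difference of 1.90 ± 0.25. In RPM, sgNlrc5 tumours (15.1 ± 3.39, SD, n = 4) and sgScramble TDMa culture (14.6 ± 0.840, n = 2) differed by less than the spread between libraries, while sgScramble tumours were at 4.17 ± 1.55.

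Pik3cd (ENSMUSG00000039936, chromosome 4), the PI3K delta gene, stood at 136 and 145 normalised counts with sgScramble in TDMa culture and at 5.62 and 10.7 with sgNlrc5, or 294 and 16 reads. Its log2 difference there was -4.01 ± 0.32. Tumours held 145, 98.3, 143 and 136 normalised counts with sgScramble and 360, 265, 337 and 281 with sgNlrc5, a log2 difference of 1.25 ± 0.16. Here the sgScramble libraries were about as high in culture as in tumours, with 10.6 ± 0.454 (SD, n = 2) and 9.12 ± 1.45 (n = 4) RPM. Which cells the tumour reads came from was not tested.

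Ecm1 (ENSMUSG00000028108, chromosome 3), the matrix gene, had the smallest culture difference and the largest tumour difference of the set. In TDMa culture it was at 160 and 185 normalised counts with sgScramble and at 56.2 and 52.3 with sgNlrc5, a log2 difference of -1.64 ± 0.19. In tumours sgScramble libraries held 279, 380, 631 and 358, and sgNlrc5 libraries 1636, 2196, 2295 and 2452, a log2 difference of 2.43 ± 0.21. In RPM it averaged 13.0 in sgScramble TDMa culture, 28.8 in sgScramble tumours and 149 in sgNlrc5 tumours, so that both tumour groups stood above both culture groups.

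**Figure D2:**
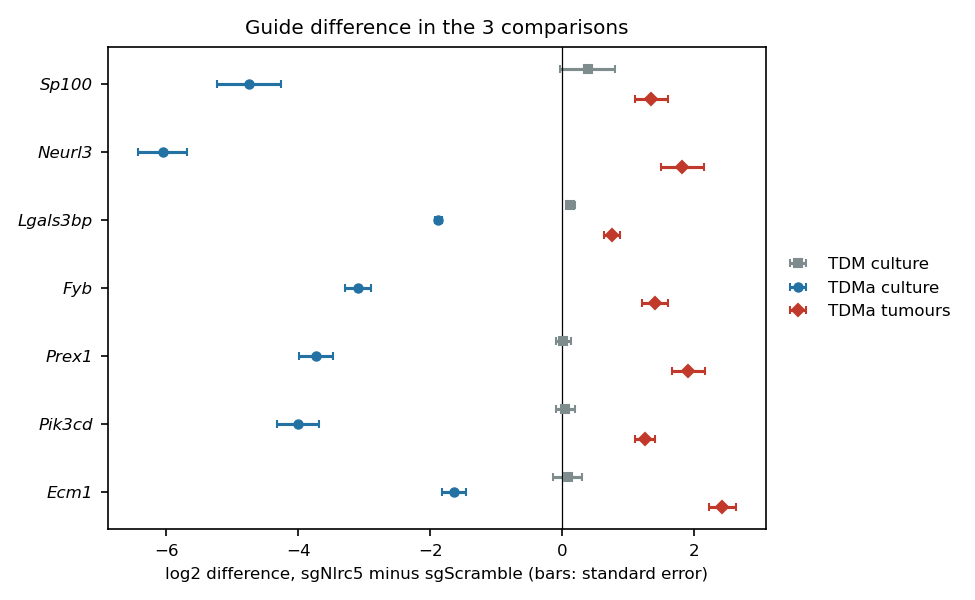
Log2 difference between guides (sgNlrc5 minus sgScramble) for each gene in the 3 comparisons, with bars of 1 standard error; Fyb and Neurl3 have no tested value in TDM culture. TDMa culture values lie between -6.06 and -1.64, tumour values between 0.75 and 2.43, and TDM culture values between 0.014 and 0.39.

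The guide comparison in TDM culture was the one the choice had not used, and none of the genes tested there passed. Of the 7 genes, 5 reached the mean of 10 normalised counts required for a test, and 0 of these 5 were called by limma at an adjusted p under 0.05, nor did any pass at an unadjusted p under 0.05. Among all 11989 genes tested, 0.517% were called (0.284% higher, 0.234% lower) and 9.04% had an unadjusted p under 0.05. The median difference of the 5 was log2 0.081, against 0.00033 over all genes. Voom with TMM on recovered reads also called 0 of the 5. Groups overlapped in each of the 5 genes.

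In TDM culture, Prex1 stood at 292 and 267 normalised counts with sgScramble and 274 and 290 with sgNlrc5, a log2 difference of 0.014 with a 95% interval from -0.23 to 0.26 (limma adjusted p = 0.99). Pik3cd was at 175 and 188 against 175 and 199, by 0.045 (interval -0.25 to 0.34, adjusted p = 0.96). These intervals leave out changes of the size seen in TDMa culture, -3.73 and -4.01, but the difference between the lines was not tested, since the TDMa values had chosen the genes. Ecm1 was at 62.6 and 70.0 against 73.1 and 67.2, by 0.081 (interval -0.38 to 0.54, adjusted p = 0.95).

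Lgals3bp was at 4189 and 3884 normalised counts with sgScramble in TDM culture and 3926 and 4917 with sgNlrc5, by log2 0.12 (interval -0.036 to 0.28, limma adjusted p = 0.66). Sp100 was at 37.0 and 23.3 against 22.5 and 66.3, by 0.39 (interval -0.49 to 1.27, adjusted p = 0.84), the least precise of the 5. In both genes sgNlrc5 replicate 2 was the highest library and replicate 1 was within or below the sgScramble range. Without sgNlrc5 replicate 1, Lgals3bp passed at 0.29 (adjusted p = 0.0053) and Sp100 stood at 1.14 without passing (adjusted p = 0.31). In the same fit 14 of 30 type I interferon genes rose, against 0 of 30 with all libraries and 4 without sgScramble replicate 1.

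Neurl3 was scarce in TDM culture, at 6.17 and 11.7 normalised counts with sgScramble and 1.12 and 2.84 with sgNlrc5, from 18 and 4 reads. The read ratio was 0.237, with a 95% counting interval from 0.0584 to 0.720. It fell short of the minimum mean, and when that minimum was dropped its log2 difference was -1.74 (limma adjusted p = 0.53). Both sgNlrc5 libraries were below both sgScramble libraries, as in 19.3% of all genes. TDMa cells with sgScramble held 12.6 RPM of it, against 0.634 in TDM cells. Fyb had no values in TDM culture.

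The combination for which the genes were picked was not rare. Of 11782 genes tested in both tables, 409 were called lower in TDMa culture and higher in tumours, or 3.47%. They made up 20.9% of the 1957 genes called lower in culture and 21.9% of the 1867 called higher in tumours. Another 577 were lower in both, 516 were higher in culture and lower in tumours, and 361 were higher in both. Within the 409, Neurl3 and Sp100 had the largest and the second largest fall in culture, Pik3cd the 8th and Prex1 the 11th, while Ecm1 had the 9th largest rise in tumours and Lgals3bp the 211th. Most of the 409 moved less than the 7 genes, with medians of log2 -0.54 in culture and 0.765 in tumours against -3.73 and 1.41. Of the 409, 77 fell by more than log2 1 in culture and rose by more than 1 in tumours. Among all 11782 genes 86 did so, and among the 7 genes 6, which were picked for these differences. The set of 409 shrank to 201 without an intensity trend in the variance.

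**Figure D3:**
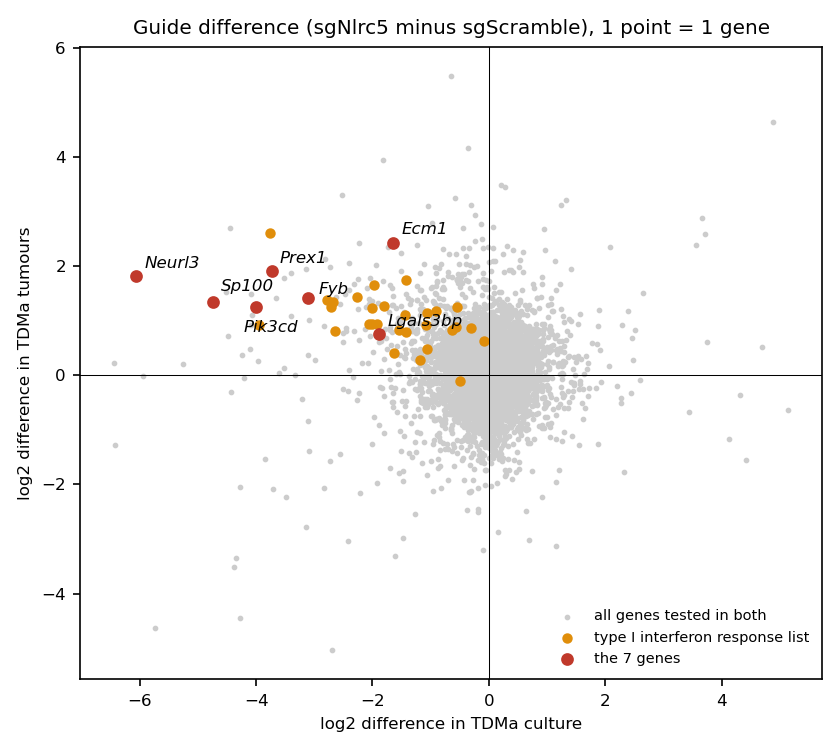
Guide difference in TDMa culture (x axis) and in TDMa tumours (y axis), both as log2 sgNlrc5 minus sgScramble, for the 11782 genes tested in both tables; the type I interferon list and the 7 genes are coloured. The 7 genes lie at the upper left of both zero lines, as they were chosen to, and 23 of 29 interferon genes tested in both were called lower in culture and higher in tumours.

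Other interferon-stimulated genes took the same course. Of 29 genes on a type I interferon list tested in both tables, 23 were called lower in TDMa culture and higher in tumours. This count was 15 without the intensity trend and ran from 17 to 25 when single libraries were left out. In TDMa culture 27 of 29 fell and 0 rose (median -1.55), and in tumours 28 of 33 rose and 0 fell (median 0.94). Oas1a, an antiviral oligoadenylate synthetase, fell by 3.95 ± 0.31 on the log2 scale in culture (limma adjusted p = 1.1e-08), and Ddx58, the RNA sensor RIG-I, fell by 1.92 ± 0.098 (adjusted p = 2.7e-11). In tumours Oas2, of the same synthetase family, rose by 2.61 ± 0.30 (adjusted p = 8.1e-05). In TDM culture 0 of 30 were called, with a median of 0.21. Interferon gamma response genes fell in 8 of 9 in TDMa culture and rose in 11 of 18 in tumours, with 0 moving the other way, and 4 of 9 had both calls: Cxcl10, Ifi47, Igtp and Irgm2. The 11 became 6 without the trend and 7 without sgNlrc5 replicate 1 or 4. MHC class I pathway genes differed from these in culture, where 6 of 10 rose and 3 fell, while all 13 rose in tumours. The 3 falls became 1 without the trend or without sgScramble replicate 1.

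Genes of the NF-kB pathway took the course of Neurl3 only in part, and a role of NF-kB in the values of Neurl3 was not tested. On a list of NF-kB factors, inhibitors and targets, 11 of 12 fell in TDMa culture and 0 rose, and 9 of 16 rose and 2 fell in tumours. The T cell chemokine gene Ccl5 fell by 2.23 ± 0.16 in culture (limma adjusted p = 2.7e-09) and rose by 2.42 ± 0.36 in tumours (adjusted p = 4.0e-04). Csf1, the macrophage growth factor gene, fell by 0.90 ± 0.074 in culture (adjusted p = 2.3e-08) and rose by 1.49 ± 0.17 in tumours (adjusted p = 9.1e-05). Of 11 genes of this list tested in both tables, 4 had both calls, namely Ccl5, Csf1, Nfkbiz and Tnip1. Of 3 other neuralized genes, Neurl1b, Neurl2 and Neurl4, 0 were called in any of the 3 tables. The nearest was Neurl1b in tumours, at 9.36 and 21.8 normalised counts (adjusted p = 0.053), which passed without the trend, without sgScramble replicate 2 or without sgNlrc5 replicate 4.

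The partners of Sp100 in PML bodies were mixed. In TDMa culture 4 of 15 rose and 4 fell, where 17.3% and 16.9% of all genes did. In tumours 3 of 16 rose and 3 fell, close to the 19.7% of all genes that moved in each direction. Without the intensity trend 2 rose and 2 fell in culture, where 2 also fell without sgScramble replicate 1 or sgNlrc5 replicate 1, and 5 fell in tumours without sgNlrc5 replicate 3. Pml, which builds the bodies, fell by 0.52 ± 0.070 in culture (limma adjusted p = 1.3e-05) and rose by 0.52 ± 0.10 in tumours (adjusted p = 0.0019). Sp140, a relative of Sp100 found in leukocytes, changed by -2.24 ± 0.45 in culture, from 28.1 to 5.16 normalised counts (adjusted p = 7.0e-04), and rose by 1.22 ± 0.22 in tumours (adjusted p = 0.0011). Pml and Sp140 were the 2 of 15 with both calls. Among galectins and their ligands, 1 of 8 had both calls: Havcr2, the checkpoint receptor TIM-3, fell by 0.78 ± 0.22 in culture (adjusted p = 0.0098) and rose by 1.74 ± 0.20 in tumours (adjusted p = 7.9e-05). Lgals9, a galectin that binds it, fell by 0.63 ± 0.058 in culture (adjusted p = 8.9e-08) and stood at 0.40 ± 0.15 in tumours (adjusted p = 0.059).

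Not all 18 partners of Fyb in integrin activation could be followed in culture. Skap1, Lcp2, Itgb2, Itgal, Apbb1ip and Was had no values in TDMa culture. Of 9 tested in TDMa culture 4 fell, by at most 0.16 on the log2 scale, and these calls were 0 without the intensity trend, 1 without replicate 1 of either guide and 2 without replicate 2 of either guide. In tumours 9 of 17 rose and 1 fell. Itgb2, the shared chain of leukocyte integrins, rose by 1.98 ± 0.19 (limma adjusted p = 3.0e-05), and Lcp2, the adaptor SLP-76 that binds ADAP, rose by 1.87 ± 0.26 (adjusted p = 2.7e-04). Skap1, the T cell partner of ADAP, rose from 3.34 to 17.1 normalised counts (adjusted p = 0.022), while Skap2, its more widespread relative, was at 1785 and 1628 (adjusted p = 0.16). Itgb1, the broadly expressed integrin chain, was the 1 of 9 with both calls.

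Relatives of Prex1 and Pik3cd among Rac regulators and PI3K genes moved in both directions. Of 21 Rac regulators in tumours, 9 rose and 2 fell, where 19.7% of all genes moved in each direction. The leukocyte genes Dock8, Vav1 and Rac2 rose by 1.69 ± 0.20, 1.69 ± 0.21 and 1.68 ± 0.24 (limma adjusted p = 9.4e-05, 1.4e-04 and 3.2e-04). Prex2, the closest relative of Prex1, fell by 1.14 ± 0.18 in tumours (adjusted p = 5.5e-04) and by 0.28 ± 0.074 in TDMa culture (adjusted p = 0.0060). Rac1, the ubiquitous Rac, was at 3740 and 3753 normalised counts in tumours (adjusted p = 0.99). In TDMa culture 3 of 14 rose and 2 fell, close to the 17.3% and 16.9% of all genes. Of 14 tested in both, 0 had the course of Prex1, which 3.47% of all genes had. Vav1, Dock2, Dock8, Rac2 and Elmo1 had no values in TDMa culture. Genes with values there held at least 20 reads summed over its libraries. Why these 5 were absent is not given, so their course there is unknown. The 2 falls in tumours ranged from 1 to 5 when single libraries were left out, with 5 without sgScramble replicate 4. The 2 in culture became 0 without the trend, 1 without sgScramble replicate 1 and 4 with equal sums.

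Of 15 PI3K pathway genes in tumours, 7 rose and 2 fell, the latter 1 without sgScramble replicate 3 or without sgNlrc5 replicate 2. Pik3cg, the other leukocyte catalytic subunit, rose from 23.4 to 52.1 normalised counts (limma adjusted p = 0.015), and the adaptor gene Pik3ap1 and the lipid phosphatase gene Inpp5d rose by 1.93 ± 0.27 and 1.69 ± 0.20 (adjusted p = 2.9e-04 and 9.7e-05). Pik3cb, a widespread catalytic subunit, fell by 0.42 ± 0.12 in tumours (adjusted p = 0.020) and rose by 0.32 ± 0.083 in TDMa culture (adjusted p = 0.0056). Pik3ca, the other widespread one, rose by 0.28 ± 0.074 in TDMa culture (adjusted p = 0.0060). Pik3r3 changed by -0.29 ± 0.046 in TDMa culture (adjusted p = 5.6e-05) and rose by 0.66 ± 0.14 in tumours (adjusted p = 0.0037). It was the 1 of 10 tested in both with the course of Pik3cd. In TDMa culture, where Pik3cg, Pik3ap1 and Inpp5d had no values, 6 of 10 rose and 1, Pik3r3, fell. Pik3cd thus moved there against most of the relatives that were tested. Without the intensity trend 0 of these 6 and 0 lower genes passed, and 3 passed without sgScramble replicate 1 or without sgNlrc5 replicate 2.

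Matrix partners of Ecm1 fell in TDMa culture in 6 of 7, with 1 higher. Fn1, fibronectin, fell by 1.46 ± 0.036 (limma adjusted p = 1.6e-15), and Thbs1, thrombospondin, by 1.90 ± 0.17 (adjusted p = 5.5e-08). In tumours 4 of 9 rose and 1 fell. The fall was Fn1, which changed by -1.11 ± 0.40 (adjusted p = 0.043) and so was lower in both settings. Among those that rose were Mmp2, a gelatinase, by 2.04 ± 0.30 (adjusted p = 4.1e-04), and Fbln1, the fibulin that binds ECM1, by 0.75 ± 0.074 (adjusted p = 3.6e-05). Fbln1 also rose in culture, by 0.30 ± 0.044 (adjusted p = 2.8e-05). Mmp2 and Thbs1 were the 2 of 6 with the course of Ecm1. The single rise in culture and the single fall in tumours each became 0 without the intensity trend, and the latter also without any one sgScramble tumour or sgNlrc5 replicate 1 or 2.

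Leukocyte markers rose with sgNlrc5 in the same tumours. All 14 T cell markers rose, with a summed level of 149 to 248 normalised counts with sgScramble and 533 to 1710 with sgNlrc5. All 12 macrophage markers rose, from 4675 to 7370 in sum with sgScramble to 15772 to 21764 with sgNlrc5, and 5 of 6 pan-leukocyte markers rose, from 1552.5 to 2513.9 in sum to 3549.8 to 4833.3. Of 6 NK cell markers, Ncr1 and Klrb1c had no values in tumours. The 3 tested, Klrk1, Klrd1 and Eomes, rose, with list sums of 15.3 to 47.6 and 96.7 to 264. Fibroblast markers rose in 3 of 6 and fell in 1, endothelial markers in 0 of 4, and melanocyte lineage markers rose in 3 of 11 and fell in 2. None of the markers listed in the tumour table was at 0 in all libraries. The part of these cells in the tumour values of the 7 genes was not tested.

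**Figure D4:**
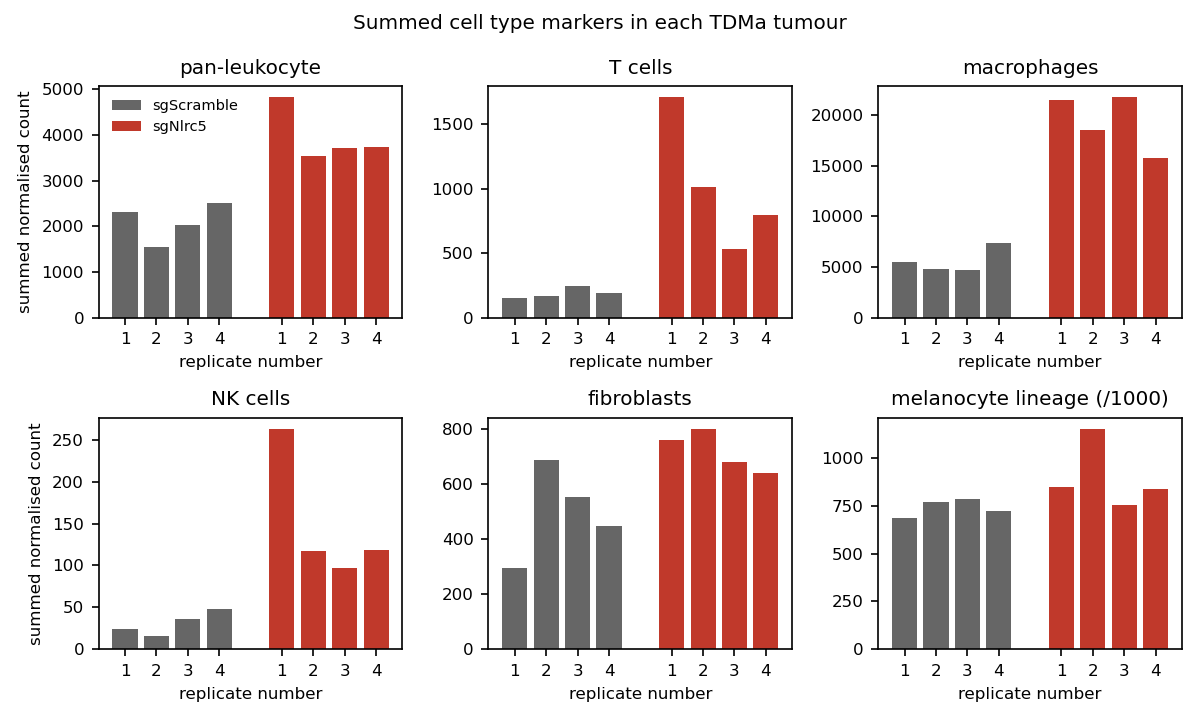
Summed normalised counts of 6 cell type marker lists in each of the 8 TDMa tumours, 1 bar per tumour, by guide and replicate number, on linear axes from 0 (melanocyte lineage sums divided by 1000). T cell, macrophage, NK cell and pan-leukocyte sums are higher in each sgNlrc5 tumour than in any sgScramble tumour, with the highest pan-leukocyte sum, 4833, in sgNlrc5 replicate 1.

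In culture, where all 7 genes were measured in TDMa cells with sgScramble, few leukocyte markers had values. Of the 6 pan-leukocyte markers only Coro1a and Arhgdib had values there, and Ptprc, which defines leukocytes, had none. Genes with values in TDMa culture held at least 20 reads summed over its libraries. Coro1a stood at 12.4 normalised counts with sgScramble and 23.6 with sgNlrc5 (limma adjusted p = 0.18). Arhgdib fell from 64.4 to 24.4 (adjusted p = 0.0018), the direction of the 7 genes there, and its part in their values was not tested. None of the 14 T cell, 6 NK cell or 7 cytotoxic markers had values in TDMa culture. In TDM culture 2 T cell markers, Cd3d and Lck, had values, with sums of 581 to 664 with sgScramble and 661 to 699 with sgNlrc5. The pan-leukocyte sum in TDM culture, also from 2 markers, was 226 to 232 and 281 to 300. So these lists were not silent in cultured cells. Of 12 macrophage markers 3 had values in TDMa culture. Lyz2, lysozyme, fell from 51.0 to 9.98 with sgNlrc5 (limma adjusted p = 5.5e-05), Cd68, a lysosomal protein gene, rose from 730.2 to 1046 (adjusted p = 4.1e-06), and Mertk stood at 134 and 149.6 (adjusted p = 0.46). Their sum was 866 to 965 with sgScramble and 1187 to 1224 with sgNlrc5. The signalling genes Fyb, Prex1 and Pik3cd averaged 263, 194 and 140 normalised counts in TDMa culture with sgScramble. With sgNlrc5 they averaged 29.9, 13.9 and 8.14. Which cells these reads came from was not tested.

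Single tumours did not order all the genes and marker sums alike within a guide. Among sgNlrc5 tumours, replicate 1 held the highest pan-leukocyte, T cell and NK cell sums. It also held the highest Sp100, Neurl3, Prex1 and Pik3cd, but the lowest Ecm1 and Lgals3bp. The macrophage sum with sgNlrc5 was highest in replicate 3, and Fyb in replicate 4. Among sgScramble tumours, replicate 4 held the highest pan-leukocyte, macrophage and NK cell sums and the highest Sp100, Neurl3, Fyb and Prex1. The T cell sum and Ecm1 were highest in sgScramble replicate 3, and Pik3cd and Lgals3bp in replicate 1. The sgScramble tumour with the lowest pan-leukocyte sum, replicate 2, was also the lowest in Sp100, Fyb, Prex1, Pik3cd and Lgals3bp. Neurl3, Ecm1 and the T cell sum were lowest in sgScramble replicate 1. With 4 tumours per guide these orders are a description.

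Likeness across tumours was measured as Pearson's r of log2 values over the 8 tumours after each guide's mean was subtracted, against 10414 genes with a mean of at least 50 normalised counts; with so few tumours, high values arise among so many genes. Nearest to Sp100 were Clec12a, a myeloid lectin (r = 0.985), Pnp (0.984) and the interferon-induced Epsti1 (0.983). Nearest to Neurl3 were Ccdc88b (0.978), Vps9d1 (0.976) and Pik3r5, a regulatory subunit of leukocyte PI3K (0.976). Fyb was most like Ogfr (0.995), Vav1, the leukocyte Rac exchange factor (0.986), and Nmi (0.985). Pik3cd was most like Icosl, a costimulatory ligand (0.956), Arl4a (0.943) and Zfp184 (0.937). Prex1 was most like the ribosomal protein genes Rps13 (0.980) and Rpl22 (0.979) and Rtraf (0.976). Ecm1 was most like Gsk3b (0.952), Synj2 (0.936) and Tshz1 (0.932), and Lgals3bp most like Tmem144 (0.986), Eif5 (0.963) and Acbd5 (0.949). Over the 21 pairs of the 7 genes themselves, r ran from -0.70 to 0.87 with a median of 0.34.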

How the data were processed

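RNA-seq values of 16 libraries were analysed. The authors deposited 3 tables of log2(normalised count + 1), each made with DESeq2 on its own set of libraries, per the labels. The submitters' processing notes list DESeq2 1.36.0, STAR 2.7.10a, the build GRCm39 (mm39) and FastQC 0.12.0, without roles. Low values were whole multiples of 1 read in each library (100% within 0.1 of a whole read, up to 2000 reads), which gave the reads behind each value and 12183889 to 16390886 reads per library. Normalised counts are 2 to the power of the value, minus 1.

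Groups were taken from the labels. Guides were compared within each table by limma 3.58.1 (R 4.3.3) with an intensity trend, over genes with a mean of at least 10 normalised counts, at a Benjamini-Hochberg adjusted p under 0.05. The 7 genes and all lists were chosen with earlier results of these data known. Differences are on the log2(value + 1) scale, which understates those of low genes. Read ratios carry exact 95% intervals that cover counting error only. The procedure was tested on simulated data.

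The rule for named genes took the 7 genes, Nlrc5, up to 4 genes per list with the smallest p in the tumours and up to 4 in TDMa culture, and the 3 genes most like each of the 7; other list genes named were chosen after their values were seen. Alternatives were another pseudocount, filters, no trend, other scalings, voom with TMM on recovered reads, a replicate block, and leaving out each library.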

Additional observations from a re-analysis of the deposited data

Results flagged for a closer look

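Of 40 groups of 4 tumours examined, 4 held a tumour far from the other 3, and chance alone sets apart about 1 in 20 groups. Prex1 stood at 285.8 normalised counts in sgNlrc5 replicate 1, against 186.6 to 199.8 in the other sgNlrc5 tumours, a gap of 0.867 of the whole range. The summed pan-leukocyte markers of the same tumour were 4833, against 3550 to 3741 in the others (0.851 of the range), and its summed NK cell markers were 263.7, against 96.75 to 118.5 (0.869 of the range). The summed erythroid markers were 3099 in sgScramble replicate 4, against 654.1 to 976.8 in the other sgScramble tumours (0.868 of the range).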

How the results depend on the processing

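In TDM culture the 62 calls became 2 without the intensity trend, and ran from 72 to 130 when single libraries were left out (102 without sgScramble replicate 1 and 130 without sgNlrc5 replicate 2). In TDMa culture the 4156 calls became 1581 without the trend. The 409 genes lower in TDMa culture and higher in tumours became 201 without it. Of the 7 genes, 0 were called in TDM culture, or 0 to 1 with single libraries left out, the 1 being Lgals3bp without sgNlrc5 replicate 1. Leaving out a culture library leaves 1 in its group, which is then assumed to vary like the others. The r of same-numbered deviations was -0.061 in TDM culture, 0.017 in TDMa culture and -0.26 to 0.15 in tumours. With so few libraries this does not settle whether replicate numbers pair the samples. With the replicate block the calls were 122 in TDM culture, 4433 in TDMa culture and 4533 in tumours, and 406 genes had both calls. None of the 7 genes changed direction in TDMa culture or in tumours under the alternatives run, directions for which they had been chosen. In TDM culture, Sp100, Lgals3bp, Prex1 and Pik3cd took either sign, Sp100 from -0.37 to 1.14. The directions of single other genes were not followed across the alternatives. All 112 values that the alternatives gave for the 7 genes in tumours moved by less than the spread between replicates. In TDMa culture 76 did so and 7 moved by more, all of them of Sp100, Neurl3 or Ecm1. With a minimum mean of 50 Sp100 was not tested in TDMa culture. Genes at a few reads, Sp100 and Neurl3 in sgNlrc5 culture, are limited by depth.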
